A study of Mus musculus with 56 samples.

Results

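The comparison described here set front paws of arthritic mice given antibodies against both tumour necrosis factor (TNF) and interleukin-6 (IL-6) against paws of arthritic mice given an isotype control antibody. It used 26 of the 56 libraries of the study, 13 labelled combination and 13 labelled isotype, 1 library per mouse. All 26 mice were male DBA/1 mice with collagen-induced arthritis (CIA), an autoimmune joint disease raised here by immunising with chicken collagen type II on days 1 and 21. Injections began on day 21 and were given 2 times a week for 5 weeks. The combination group received clone XT3.11 against TNF at 30 mg/kg together with clone MP5-20F3 against IL-6 at 10 mg/kg, and the isotype group received an IgG1 control at 30 mg/kg. Whole front paws were homogenised on day 91, which is 35 days after the end of a 5-week course begun on day 21. The values therefore describe paws after the course and not during dosing. The other libraries were 13 anti-TNF, 13 anti-IL-6 and 4 untreated mice labelled no CIA, and they are used only as points of reference.

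TNF is a trimeric cytokine, made largely by macrophages and lymphocytes, that signals through the receptors encoded by Tnfrsf1a and Tnfrsf1b and switches on NF-kB, a transcription factor of inflammatory genes. IL-6 binds the receptor encoded by Il6ra, and the pair engages the shared signalling chain gp130, encoded by Il6st, which activates the JAK kinases and the transcription factor STAT3. In arthritic joints both cytokines are known to act on synovial fibroblasts, neutrophils, endothelium and osteoclasts. The antibodies bind the cytokine proteins, so the messenger RNA of Tnf or Il6 is not a measure of how much cytokine was blocked.

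No gene differed between combination and isotype paws at an adjusted p under 0.05 among 14399 genes tested, a share of 0%. The test was limma on log2(FPKM + 1), two-sided, with Benjamini-Hochberg adjustment over all genes, where FPKM is fragments per kilobase of transcript per M (mega) mapped fragments. The smallest adjusted p was 0.755. At an unadjusted p under 0.05 there were 846 genes (5.88%), 373 higher (2.59%) and 473 lower (3.28%) in combination paws. Not 1 gene separated the groups without overlap (0%). Of all genes, 6693 were higher and 7706 lower in combination paws, and the median difference was -0.0075 on the log2 scale. That split depended on scaling, with 7381 higher and 7018 lower after median-of-ratios scaling, and 7921 higher and 6478 lower with the index run as a covariate.

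The precision of this result differed by gene. The median half-width of the 95% confidence interval was 0.17 on the log2 scale. For 13995 genes (97.19%) the interval lay within 1 log2 unit of no difference. It lay within 1.5-fold for 13007 (90.33%) and within 1.2-fold for 8046 (55.88%). These bounds, and those given below, are for FPKM + 1. For FPKM itself they are wider, most of all for low genes. Among 564 tested genes of 36 pathway and cell type lists, 104 had an interval that reached beyond 1 log2 unit, among them all 21 skeletal muscle genes tested. For those 104 genes a difference of that size lay within the interval and was not excluded.

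Estimated depth was 40.6 to 52.95 M fragments in the 26 libraries, 47.3 ± 3.06 in combination and 45.6 ± 3.14 in isotype (SD, n = 13 each). The index numbers in the titles fall into 5 runs within which mouse numbers ascend, apart from isotype replicate 10. Both groups were present in 4 of the runs, with combination libraries 4, 4, 4 and 1 and isotype libraries 1, 4, 1 and 5 in runs 2 to 5, and run 1 held isotype replicates 4 and 7, all 4 no CIA libraries and no combination library. Counts set against the no CIA range below therefore compare libraries of different runs, and for the combination group the run and the group cannot be told apart there. No gene was called with the run as a covariate. Whole paw RNA mixes joint, bone, muscle and skin, and fewer cells of a type cannot be told apart from less RNA per cell. The tissue label was borne out by high levels in isotype paws of Acta1, skeletal muscle actin (median FPKM 4278), Krt10, an epidermal keratin (4129), and Col1a1, the main chain of bone and fibrous collagen (838). One library stood apart. Combination replicate 6 held Cd79a, a chain of the B cell receptor, at FPKM 62.4, against a group median of 1.17. Results on lymphocyte genes are therefore given with and without it.

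The direction of many of the gene lists described below was not stable. The median log2 difference lay below 0 in 29 of 36 lists, in 20 of 36 with the index run as a covariate, where it changed sign in 11, and in 28 of 36 without combination replicate 6, where it changed sign in 5. On leaving out 1 of the 26 libraries at a time, the median changed sign at least once in 21 of 36 lists. It changed sign or moved by over 1.5 times in 34 of 36 lists, the exceptions being mast cell and immediate early genes. A median near 0, such as 0.0003 for prostaglandin and leukotriene enzymes, passes that ratio easily. The count of 34 therefore says little about direction. Leaving out isotype replicate 4, a library of run 1, gave the highest median in 15 of 36 lists. The median kept its sign under every setting tried for TNF and NF-kB response, STAT3 and acute phase, interleukin-1 family, matrix-degrading enzyme and cell cycle genes. The same held for immediate early, T and natural killer cell, mast cell, osteoclast, WNT antagonist, adipocyte and erythroid genes. None of their members was called in any setting.

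Neither gene that encodes an antibody target was called. Tnf (chr17:35199381-35202007, GRCm38) had an FPKM of 0.709 to 4.34 in combination paws, with a median of 1.41, and of 1.06 to 2.75 in isotype paws, with a median of 1.5. The combination range enclosed the isotype range at both ends. The log2 difference was 0.02 (95% interval -0.33 to 0.36, unadjusted p = 0.914). Tnf lay above the highest of the 4 no CIA libraries in 9 of 13 combination and 13 of 13 isotype paws.

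Il6 (chr5:30013114-30019981) was low in most mice and high in a few. Its FPKM ran from 0.12 to 6.16 in combination paws (median 0.28) and from 0.0239 to 8.24 in isotype paws (median 0.97). The high combination mice were replicates 5 and 11, at 6.16 and 4.26, and the high isotype mice were replicates 4 and 7, at 8.24 and 5.49. These isotype replicates were both in index run 1, which held no combination library, so mouse and run cannot be told apart there. The groups overlapped over nearly their whole ranges. On the log2 scale the difference was -0.33 (95% interval -1.15 to 0.50, unadjusted p = 0.428), and within the 4 shared index runs it was -0.51, 0.56, -0.36 and -0.68. Runs 2 and 4 held 1 isotype library each and run 5 held 1 combination library. Il6 lay above the highest no CIA library in 12 of 13 combination and 9 of 13 isotype paws. That library was at only 0.141 FPKM, so these counts rest in part on small differences between low values. Combination replicate 13, at 0.144, lay above it and isotype replicate 13, at 0.124, below it.

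None of the 4 receptor genes was called either. Tnfrsf1a, the broadly expressed TNF receptor, had a mean FPKM of 84.7 ± 18.8 in combination and 83.9 ± 15.8 in isotype paws (SD, n = 13 each), a log2 difference of 0.01 (95% interval -0.22 to 0.23). Tnfrsf1b, the TNF receptor of leukocytes and endothelium, had medians of 5.23 and 4.89 and ranges of 2.28 to 13.4 and 2.3 to 17.2. Its interval, -0.58 to 0.56, was the widest of the 4 receptor genes. Il6ra had a mean of 5.09 ± 0.724 against 5.37 ± 0.546 (-0.07, 95% interval -0.24 to 0.11), and Il6st of 29.3 ± 7.1 against 30.7 ± 7.9 (-0.06, 95% interval -0.33 to 0.21). The bound farthest from 0 among these 4 intervals was -0.58 on the log2 scale.

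**Figure D1:**
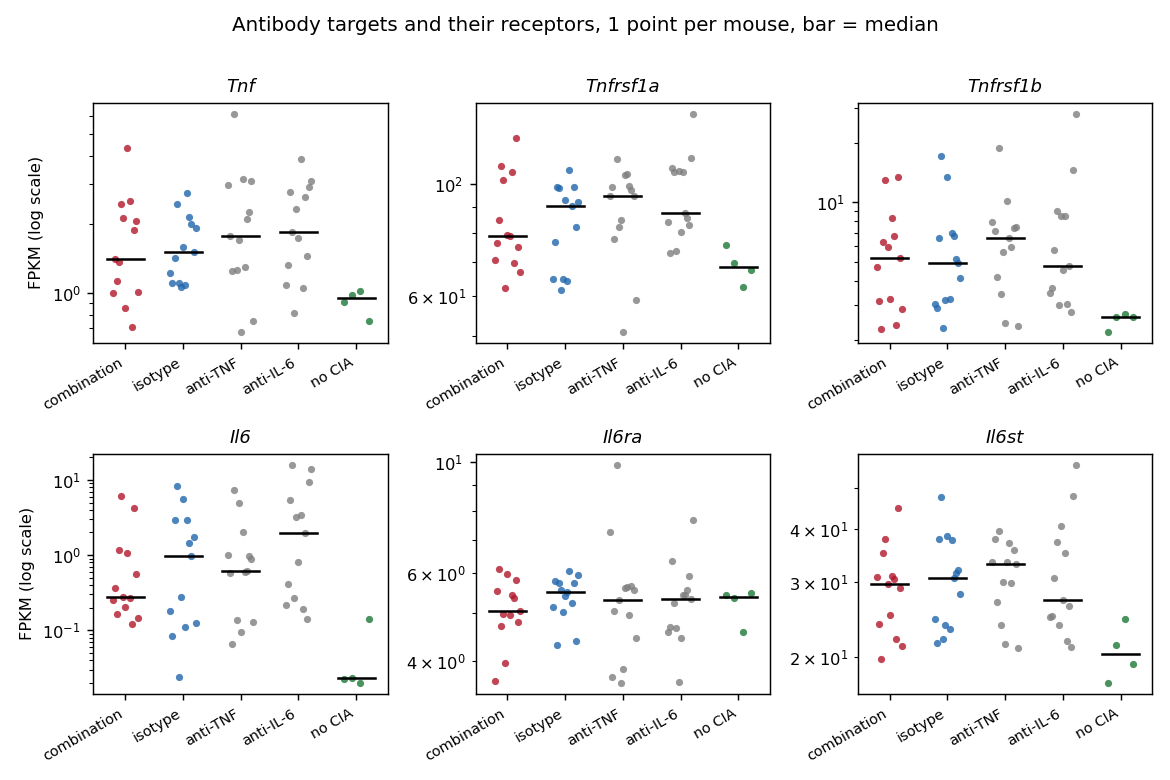
FPKM on a log axis of Tnf, Il6 and their receptor genes in each mouse, by group, with a bar at each group's median (values under 0.02 are drawn at 0.02). Combination and isotype points overlap in all 6 panels, and Il6 is spread over more than an order of magnitude within both groups.

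Related ligands and receptors of both families were divided evenly, with 8 of 16 tested genes higher and 8 lower in combination paws, and none called. With the index run as a covariate the split was 12 higher and 4 lower (median 0.04). Il11ra1, the receptor of interleukin-11 and the highest of them by level, had an FPKM of 83.5 ± 19.6 in combination and 75.8 ± 17.4 in isotype paws (SD, n = 13 each). Lta, which encodes lymphotoxin alpha, a TNF relative made by lymphocytes, ran from 0.584 to 2.27 (median 0.923) against 0.432 to 0.989 (median 0.814). The highest Lta value was again in combination replicate 6, and the log2 difference of 0.15 (unadjusted p = 0.0577, adjusted p = 0.872 by limma) was 0.09 without it (unadjusted p = 0.19). Tnfrsf12a, the receptor of the TNF relative TWEAK, had medians of 41.6 and 33.6 and differed by 0.17 (95% interval -0.02 to 0.36).

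Genes that TNF is known to induce through NF-kB were not called, with 19 of 23 tested members lower, a median log2 difference of -0.05 and none past an unadjusted p of 0.05. Over all genes tested, 7706 of 14399 were lower. Nfkbia, the inhibitor that holds NF-kB in the cytoplasm, was at 58.5 ± 9.47 FPKM in combination and 59.1 ± 8.01 in isotype paws (SD, n = 13 each), with an interval of -0.24 to 0.20. Nfkbiz, a nuclear cofactor of NF-kB, had medians of 7.84 and 9.31 and Ier3, an early response gene, of 26.2 and 32.1. The widest interval in the list belonged to Cxcl1, a neutrophil chemokine, with 0.646 to 30.6 FPKM in combination and 1.03 to 37.5 in isotype paws and a log2 difference of -0.62 (95% interval -1.75 to 0.50). With the index run as a covariate 12 of the 23 members were lower (median -0.0018). The mean log2(FPKM + 1) of the list lay above all no CIA libraries in 13 of 13 combination and 13 of 13 isotype paws.

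Targets of STAT3 and acute phase genes, the known output of IL-6 signalling, gave a like picture, with 16 of 20 lower in combination paws and a median log2 difference of -0.09. The count was 11 of 20 (median -0.01) with the index run as a covariate. Socs3, the feedback inhibitor of gp130 signalling, ran from 10.2 to 52.3 FPKM in combination paws (median 17.8) and from 9.56 to 47.3 in isotype paws (median 27.4). Those ranges were nearly the same, and the difference was -0.20 (95% interval -0.82 to 0.41). Junb, an AP-1 factor that STAT3 induces, had the smallest p of the list, with means of 70.3 ± 20.9 and 84.6 ± 21.3 and a difference of -0.27 (unadjusted p = 0.104, adjusted p = 0.903 by limma). Cebpb, an acute phase transcription factor, had medians of 45.1 and 50.6. The score of the list exceeded every no CIA library in 13 of 13 combination and 11 of 13 isotype paws. Differences of the 15 tested JAK kinases, STAT factors and SOCS regulators ran from -0.13 (Socs4) to 0.04 (Socs7). All 15 genes had intervals within 1.5-fold on the FPKM + 1 scale. Of them 12 were lower, and 5 with the index run as a covariate.

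Saa3, a serum amyloid A made locally in inflamed tissue, showed how far mice of the same group lay apart. Its FPKM was 1.29 to 271 in combination paws (median 22.1) and 0.621 to 335 in isotype paws (median 32.9), against 0.401 to 1.38 in no CIA paws. Both arthritic groups thus held mice at the no CIA level and mice far above it. The log2 difference between the groups was -0.09 with a 95% interval of -2.08 to 1.90, from 0.237-fold to 3.73-fold on the FPKM + 1 scale.

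Neutrophil genes had the same shape. S100a8, an alarmin of neutrophils and monocytes, had an FPKM of 19.7 to 246 (median 82.9) in combination and 9.59 to 401 (median 116) in isotype paws. Combination replicates 5 and 9 and isotype replicates 9 and 12 were the highest of their groups, and the isotype range enclosed the combination range. The difference was -0.07 (95% interval -1.33 to 1.19), which still allows S100a8 to be 0.397-fold to 2.27-fold of the isotype level on the FPKM + 1 scale. Over the mature neutrophil list 7 of 17 tested genes were higher and 10 lower, with a median of -0.02, and only 2 had an interval within 1.5-fold. With the index run as a covariate the list had 13 higher and 4 lower (median 0.21), and without combination replicate 6 there were 9 higher and 8 lower. The most abundant member, Asprv1, is also expressed in epidermis. Granule genes of marrow precursors, such as Ngp (median 16.4 against 13.3) and Mpo, myeloperoxidase (2.89 against 3.07), were not called either.

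Among interleukin-1 family and inflammasome genes 10 of 13 were lower, and 7 with the index run as a covariate. Il1b, the secreted cytokine, ran from 1.01 to 49.2 in combination paws and from 1.03 to 51.1 in isotype paws, with medians of 4.04 and 5.59. These ranges nearly coincided. Il1rap, the accessory chain of the interleukin-1 receptor, was measured more tightly at 2.72 ± 0.695 against 3.34 ± 0.582 FPKM (SD, n = 13 each). Its difference of -0.23 passed an unadjusted p of 0.05 (p = 0.0262) but not the adjustment by limma (adjusted p = 0.823). Pla2g4a, the phospholipase that frees arachidonic acid for prostaglandin synthesis, was at 3.99 ± 0.682 against 4.9 ± 0.827, a difference of -0.24 (unadjusted p = 0.00943, adjusted p = 0.793 by limma). It had the smallest p of all 564 tested list genes. Over the whole of the lists 8 genes (1.42%) passed an unadjusted p of 0.05, against 5.88% of all genes tested.

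Chemokines were split 9 higher and 12 lower, with a median of -0.04. With the index run as a covariate they were split 14 higher and 7 lower (median 0.11). Cxcl5, a neutrophil chemokine, ran from 0.0145 to 63.2 FPKM in combination and 0.0267 to 99.3 in isotype paws, and the same 2 combination mice (replicates 5 and 11) and 2 isotype mice (replicates 4 and 7) were highest as for Il6. Ccl2, a monocyte chemokine, had medians of 8.21 and 10.1. Ccl5, a chemokine of T cells, had the smallest p of the list, with medians of 3.01 and 1.68 and a difference of 0.48 (unadjusted p = 0.0732), or 0.27 without combination replicate 6 (unadjusted p = 0.243).

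Matrix-degrading enzymes and their inhibitors were lower for 17 of 20 genes, with a median of -0.11 and none past an unadjusted p of 0.05. With 1 library left out the median ran from -0.20 (without combination replicate 11) to -0.0027 (without combination replicate 3, 10 of 20 lower). With the index run as a covariate it was -0.05. Mmp3, a stromelysin of synovial fibroblasts, ran from 9.91 to 539.5 in combination paws (median 106) and from 8.71 to 912 in isotype paws (median 119.9). Combination replicates 5 and 11 and isotype replicates 4 and 7, the latter both of index run 1, were again the highest of their groups. Above the no CIA maximum of 9.71 lay 13 of 13 combination and 11 of 13 isotype paws. The difference was -0.30 (95% interval -1.95 to 1.35). Mmp13, a collagenase of cartilage and bone, had medians of 119 and 101. Mmp2, the most abundant of the list, had 306 and 249, and Timp1, an inhibitor of these enzymes, 96.7 and 105.

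**Figure D2:**
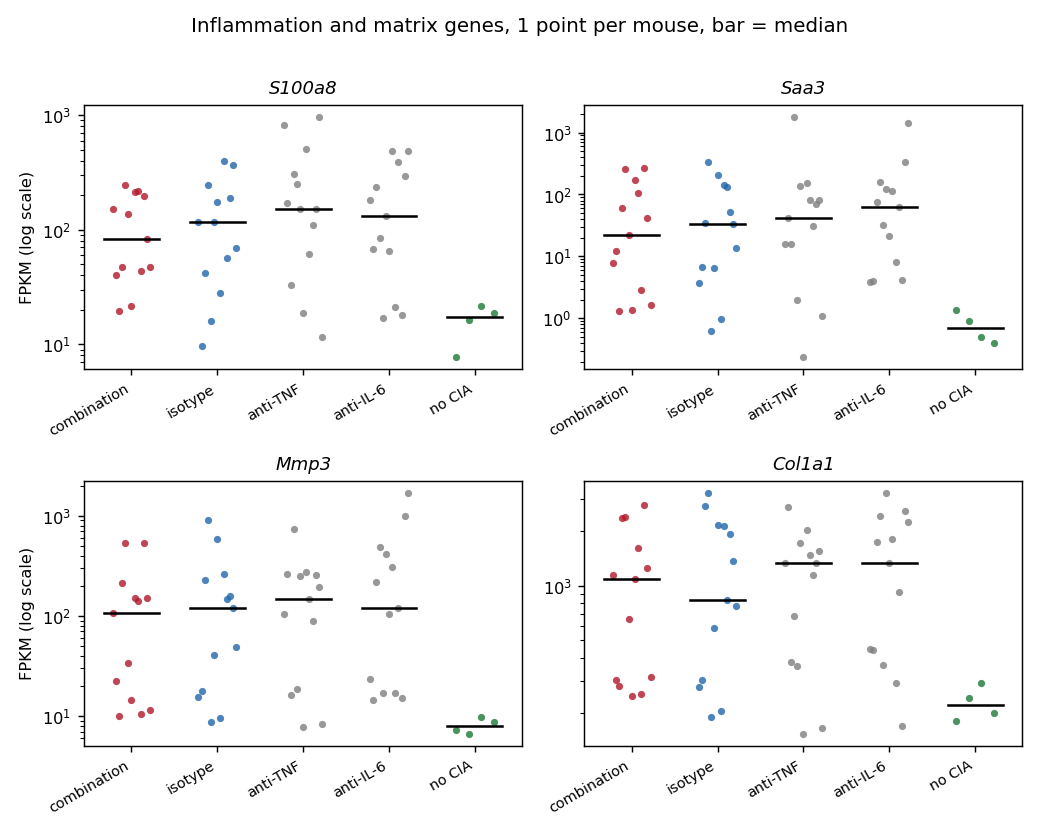
FPKM on a log axis of S100a8, Saa3, Mmp3 and Col1a1 in each mouse, by group, with a bar at each group's median. Mmp3 runs from 9.91 to 539.5 in combination and from 8.71 to 912 in isotype paws, so that both groups reach from near the no CIA level to far above it.

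Interferon-induced genes were narrower, with all 26 tested members having an interval within 1.5-fold on the FPKM + 1 scale. For members of low level, such as Ifih1, the bound on FPKM itself was wider. Of the 26 members 22 were lower in combination paws, with a median of -0.07. The direction turned with the index run as a covariate, to 21 higher and 5 lower (median 0.08), and without isotype replicate 4, to 17 higher and 9 lower (median 0.04). Ifih1, the cytoplasmic RNA sensor MDA5, was at 1.77 ± 0.31 against 2.11 ± 0.482 FPKM (SD, n = 13 each), a difference of -0.16 (unadjusted p = 0.0222, adjusted p = 0.816 by limma). Ifit1, a classic interferon-induced antiviral gene, had medians of 2.03 and 2.09 and lay above the highest no CIA value of 0.915 in 13 of 13 combination and 13 of 13 isotype paws. The score of the list likewise exceeded every no CIA library in all 13 mice of each group. Complement genes gave 7 higher and 10 lower, or 11 higher and 6 lower with the index run as a covariate, with Serping1, the C1 inhibitor, at 335 ± 69.8 and 328 ± 72.4.

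Genes of class II antigen presentation and of lymphocytes moved when combination replicate 6 was left out. With it 13 of 14 class II genes were higher in combination paws (median 0.04), and without it 3 of 14 (median -0.02). Cd74, the invariant chain, had medians of 333 and 377. For B and plasma cell genes the count was 10 of 13 higher with a median of 0.24, and 4 of 13 with a median of -0.04 without that mouse. For T and natural killer cell genes it was 7 of 10 (median 0.13) and 6 of 10 (median 0.02). The other 5 of 18 B and plasma cell genes and 13 of 23 T and natural killer cell genes, such as Cd8a and Foxp3, did not pass the filter on low values. On leaving out 1 of the 26 libraries at a time, the class II median changed sign in 3 fits. The B and plasma cell median did so in 1 fit, without this mouse, and the T and natural killer cell median in 0.

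Cd79a, at 62.4 FPKM in that mouse, ran in the isotype paws from 0.142 to 5.33. Ighd, the heavy chain of naive B cells, was at 64.2 against 0.397 to 2.19, and Fcer2a, the receptor CD23 of mature B cells, at 19.9 against 0.0969 to 0.502. It was also the highest of the 26 mice for Ccl19 (64.1), a chemokine of lymphoid stroma, for Marco (42.4), a macrophage scavenger receptor, and for Timd4 (22.9), a receptor of resident macrophages. Marco was at most 0.312 in the other combination paws, so that Marco and Fcer2a passed the filter on low values through this mouse alone. The mouse was in the middle of its group for S100a8 (136) and Mmp3 (33.9). The origin of this RNA was not tested.

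Cd2, an adhesion receptor of T cells, was the one list gene higher in combination paws at an unadjusted p under 0.05, with 0.911 to 7.98 FPKM (median 1.53) against 0.678 to 1.73 (median 1.27). Its difference was 0.34 (unadjusted p = 0.0223, adjusted p = 0.816 by limma) and 0.20 without replicate 6 (unadjusted p = 0.0821). Igkc, the kappa light chain of antibodies, had medians of 71.3 and 29.1 and ranges of 6.5 to 614 and 7.82 to 291. The groups overlapped, and the difference of 0.79 (95% interval -0.42 to 2.01) was 0.52 without that mouse. Mast cell genes were lower for 10 of 12, among them Ms4a2, a chain of the IgE receptor, at 1.14 ± 0.282 against 1.51 ± 0.39 (SD, n = 13 each; difference -0.22, unadjusted p = 0.0109, adjusted p = 0.793 by limma). Mcpt4, a mast cell protease and the most abundant of that list, had medians of 56.2 and 58.9.

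**Figure D3:**
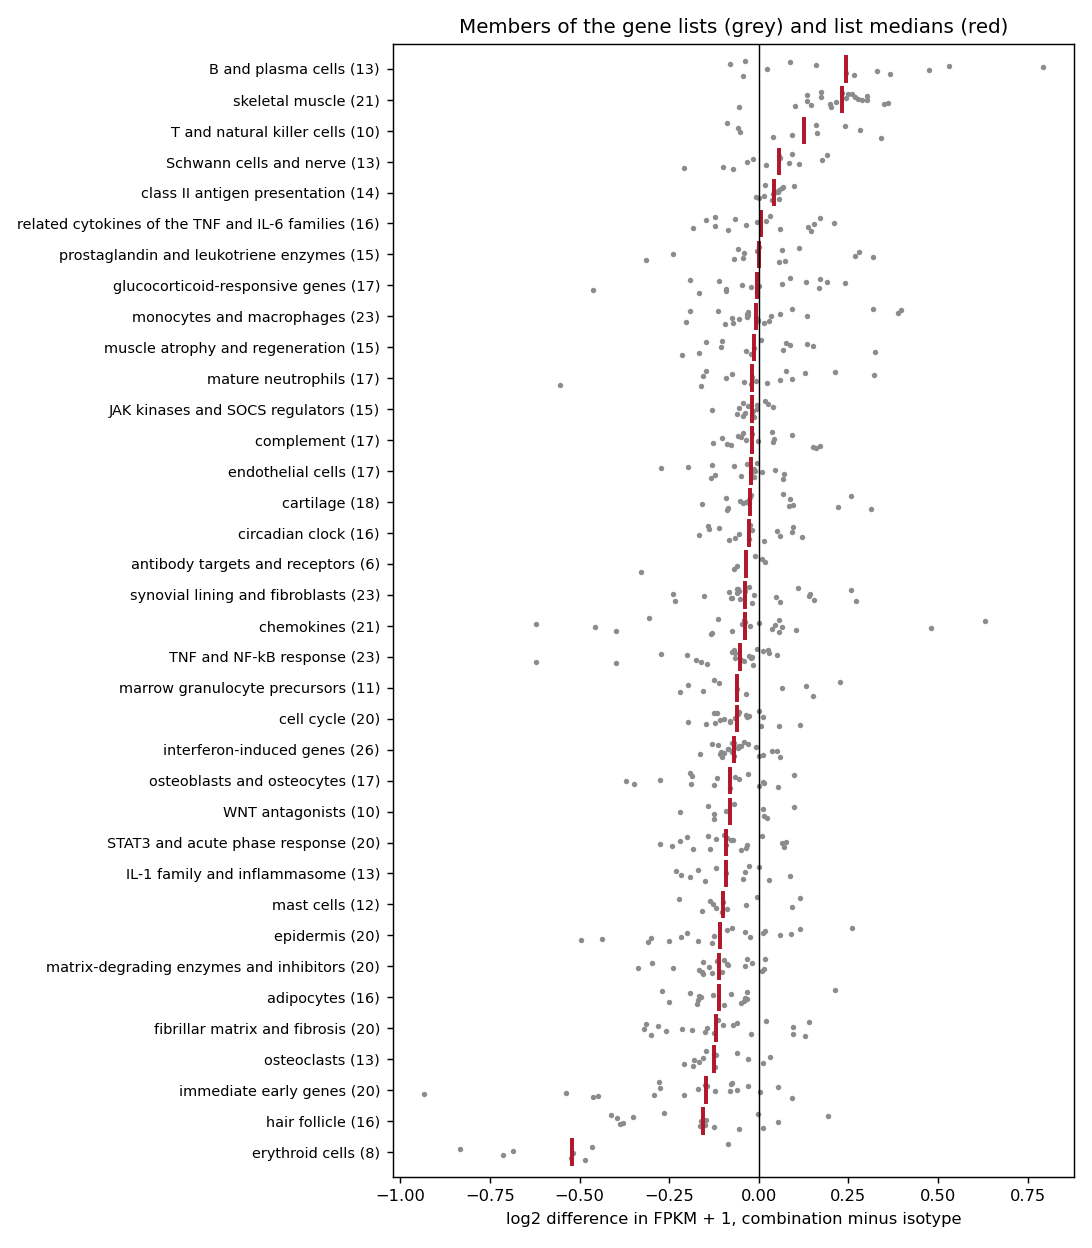
Log2 difference in FPKM + 1 (combination minus isotype, horizontal axis) of each tested gene in 36 lists, with the number tested in parentheses and the list median in red. List medians run from -0.52 for erythroid genes to 0.24 for B and plasma cell genes, 29 of 36 lie below 0 (20 of 36 with the index run as a covariate), and no gene shown was called.

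Of the tissues that arthritis remodels, fibrillar matrix genes were lower for 15 of 20 in combination paws (median -0.12). The median was -0.07 with the index run as a covariate, and -0.25 (without combination replicate 11) to 0.01 (without isotype replicate 4) with 1 library left out. Col1a1 ran from 248 to 2788 FPKM in combination paws and from 188 to 3240.0 in isotype paws. The combination median of 1084 lay above the isotype median of 838, while the difference in mean log2(FPKM + 1) was -0.12 (95% interval -1.17 to 0.93). Sparc, a matrix glycoprotein of bone and fibroblasts, behaved likewise, with medians of 2227 and 1775 and a difference of -0.06. For both genes the medians of FPKM and the means of log2(FPKM + 1) pointed in opposite directions.

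Osteoclast genes were lower for 11 of 13, with a median of -0.13. That median was -0.05 with the index run as a covariate, and ran from -0.21 (without combination replicate 11) to -0.01 (without isotype replicate 4, 8 of 13 lower) with 1 library left out. Tnfrsf11a, which encodes RANK, the receptor that drives osteoclast formation, was at 2.06 ± 0.517 against 2.4 ± 0.647 FPKM (SD, n = 13 each; difference -0.15, 95% interval -0.40 to 0.11). Ctsk, cathepsin K, the collagen-degrading protease of osteoclasts, had medians of 242 and 233. Osteoblast and osteocyte genes were lower for 12 of 17, or for 7 of 17 without combination replicate 10. Cartilage genes were lower for 11 of 18, with Prg4, the lubricin of the joint surface, at 612 and 507 by median. Without combination replicate 6 cartilage genes were higher for 12 of 18 (median 0.03). Synovial lining and fibroblast genes were lower for 15 of 23, with differences from -0.24 (Lum) to 0.27 (Clic5), and without combination replicate 6 they were higher for 14 of 23 (median 0.01). Secreted WNT antagonists, which restrain bone formation, had a median of -0.08 over 10 genes (-0.13 to -0.02 with 1 library left out, the latter without isotype replicate 9). None of these 5 lists held a gene past an unadjusted p of 0.05.

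Skeletal muscle genes were higher for 20 of 21 in combination paws, with a median of 0.23, and none of their intervals lay within 1 log2 unit. The count was 10 of 21 where the muscle score was itself a covariate, 15 of 21 with the index run as a covariate, and 17 of 21 (median 0.09) without combination replicate 6, which was also the mouse with the most Acta1. Without isotype replicate 9 it was 14 of 21 (median 0.03). Acta1 ran from 685 to 10910.0 FPKM in combination and from 438 to 6851 in isotype paws, with medians of 4294 and 4278. These medians were close, and the groups overlapped. Mb, myoglobin, had the smallest p of the list (difference 0.36, unadjusted p = 0.439).

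Adipocyte genes were lower for 15 of 16, with a median of -0.11, and had that count without combination replicate 6. The median was -0.04 without combination replicate 11, with 12 of 16 lower. Scd1, a fatty acid desaturase, had medians of 222 and 329, and Pparg, the master factor of adipocytes, of 5.07 and 6.9. All 16 intervals lay within 1 log2 unit. Epidermal genes were lower for 14 of 20, for 18 with the index run as a covariate and for 11 without combination replicate 1. Flg2, a filaggrin relative of the outer epidermis, was at 13.1 ± 4.7 against 18.8 ± 6.44 FPKM (SD, n = 13 each; difference -0.50, unadjusted p = 0.0251, adjusted p = 0.822 by limma). Krt10, the most abundant of the list, had medians of 3680.0 and 4129.

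Erythroid genes had the lowest median, -0.52, with all 8 tested genes lower in combination paws and none past an unadjusted p of 0.05. Without isotype replicate 12 the median was -0.32, still with all 8 lower, and with the index run as a covariate 7 of 8 were lower. The other 7 genes of the list were not tested, 6 because of low values and Ahsp because its symbol was not matched. Hba-a1, an alpha globin whose near-identical copy makes its own level uncertain, ran from 67.5 to 925 in combination paws (median 141) and from 63.3 to 2168 in isotype paws (median 215). The isotype maximum was replicate 12, and the groups overlapped below it. The difference was -0.71 (95% interval -1.71 to 0.28). Marrow granulocyte precursor genes, from the same organ that makes red cells, were lower for 7 of 11, or for 1 of 11 without isotype replicate 12, and the part of marrow in the erythroid values was not tested.

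Immediate early genes, which cells switch on within minutes of a stimulus, were lower for 17 of 20, with a median of -0.15. Fos (chr12:85473890-85477273, GRCm38), an AP-1 subunit, had the lowest difference of all 14399 genes. Its FPKM was 6.04 to 73.6 in combination paws (median 11.2) and 5.61 to 117 in isotype paws (median 27.1). Combination replicate 11 stood alone at 73.6, with the next at 20.6, whereas 7 isotype paws lay above that level. The difference was -0.93 (95% interval -1.75 to -0.12, unadjusted p = 0.0254, adjusted p = 0.823 by limma), and it was -1.41, -0.59, -0.91 and -1.46 within the 4 shared index runs. Runs 2 and 4 held 1 isotype library each and run 5 held 1 combination library. Only run 3 (-0.59) set 4 libraries of each group against each other.

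Egr1, a zinc finger factor of the same class, had medians of 24.9 and 31.9 (difference -0.45, unadjusted p = 0.0659), and Egr3 of 11.9 and 14.1 (difference -0.29, unadjusted p = 0.0658). Dusp1, a phosphatase that ends MAP kinase signalling and is also induced by glucocorticoids, had 39.4 and 58.0 (difference -0.46, unadjusted p = 0.088). Combination replicate 11 was also the highest of its group for Dusp1, and isotype replicate 3 was highest of its group for both Fos and Dusp1. Glucocorticoid-responsive genes as a list were split, 8 higher and 9 lower, with Sgk1, a kinase of ion transport, at 53.7 ± 6.36 against 61.4 ± 6.86 FPKM (SD, n = 13 each; difference -0.19, unadjusted p = 0.0168, adjusted p = 0.80 by limma).

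Of 16 circadian clock genes, 6 were higher and 10 lower in combination than in isotype paws (median -0.03), and none was called. With the index run as a covariate 5 were higher and 11 lower (median -0.11). The combination group was also set against mice given 1 antibody alone. Against anti-IL-6 there were 14 called genes of 14399 (0.0972%), 8 higher and 6 lower in combination paws, Dbp, Tef, Nr1d1 and Per3 among them, and against anti-TNF there were 0 (0%). Dbp, a transcription factor driven directly by the clock, was at 60.5 ± 28.6 FPKM in combination, 64.4 ± 22.1 in isotype and 18.0 ± 10.8 in anti-IL-6 paws (SD, n = 13 each). Its log2 difference was -0.17 from isotype (95% interval -0.66 to 0.33) and 1.73 ± 0.25 (SE) from anti-IL-6 (adjusted p = 4.5e-05 by limma). The interval from isotype does not reach the size of the difference from anti-IL-6. Within the 4 shared index runs, however, the Dbp difference from isotype was 0.33, -0.89, -0.46 and -1.47. Runs 2 and 4 held 1 isotype library each, and run 5 held 1 combination library. Anti-IL-6 libraries numbered 4, 0, 8 and 1 in runs 2 to 5, and the part of the run in the difference from anti-IL-6 was not tested. Tef, a relative of Dbp, was at 41.7 ± 8.18, 42.6 ± 9.76 and 23.4 ± 7.64, and Nr1d1, the clock repressor REV-ERB alpha, at 96.5 ± 22.1, 98.0 ± 22.1 and 57.4 ± 23.0. For both genes, as for Dbp, the mean was lowest in anti-IL-6 paws among these 3 groups. The mean score of the clock list was 3.44 in combination, 3.465 in isotype, 3.302 in anti-TNF, 3.183 in anti-IL-6 and 3.771 in no CIA paws. Per3, a period gene, differed by -0.14 from isotype and by 0.63 from anti-IL-6 (adjusted p = 0.00407 by limma). The combination libraries are shared by both contrasts.

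The remaining lists held no called gene either. Monocyte and macrophage genes gave 9 higher and 14 lower, against 19 higher and 4 lower (median 0.08) with the index run as a covariate and 12 higher and 11 lower after median-of-ratios scaling. Apoe, a lipid carrier of macrophages, was at 1601 ± 275 FPKM in combination and 1589 ± 300.1 in isotype paws (SD, n = 13 each). Endothelial genes were lower for 13 of 17, or 8 with the index run as a covariate, and Sele, the adhesion molecule E-selectin that cytokines induce on venules, had medians of 1.49 and 2.42 (difference -0.27, 95% interval -0.85 to 0.31). Hair follicle genes were lower for 13 of 16 (median -0.16) and Schwann cell and nerve genes for 5 of 13 (median 0.06). With the index run as a covariate the hair follicle median was -0.03, and 9 of 13 Schwann cell and nerve genes were lower (median -0.04). Without isotype replicate 7 hair follicle genes were lower for 6 of 16. Cell cycle genes were lower for 15 of 20, and all 20 had intervals within 1.5-fold on the FPKM + 1 scale. Ccnb1, the cyclin of mitotic entry, had medians of 12.4 and 13.3. Muscle atrophy and regeneration genes were lower for 8 of 15, or for 3 with the index run as a covariate, and prostaglandin and leukotriene enzymes for 7 of 15.

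The genes with the smallest unadjusted p were mostly small, tight differences. Sap25 (chr5:137641334-137642902, GRCm38), a component of the SIN3 corepressor complex, had an FPKM of 6.29 to 14.7 in combination paws (median 12.7) and 1.97 to 10.3 in isotype paws (median 7.09). In 9 combination paws it lay above every isotype paw, and the other 4 overlapped. The difference was 0.70 (95% interval 0.31 to 1.09, unadjusted p = 0.000702, adjusted p = 0.755 by limma), and the no CIA range of 5.64 to 14.0 spanned most of both groups. Within the 4 shared index runs the Sap25 difference was 0.05, 1.27, 0.45 and 0.82. Igflr1, a TNF receptor-like protein that binds an insulin growth factor-like ligand, had medians of 3.83 and 2.64 (difference 0.45, unadjusted p = 0.00114).

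The other genes of this kind higher in combination paws were Doc2g, Clec2l, Rdh5, Nudt3, Twnk, Tars2, Uspl1 and Znrf1, with differences from 0.13 (Znrf1) to 0.32 (Doc2g). Twnk encodes the mitochondrial DNA helicase and was at 8.5 ± 0.617 against 7.51 ± 0.468 FPKM (SD, n = 13 each). Tars2 charges mitochondrial threonine transfer RNA and was at 18.6 ± 1.54 against 16.6 ± 1.07. Among the 10 lower genes Lipn, a lipase of the outer epidermis, had the largest difference, with 0.289 to 1.52 (median 0.848) against 0.615 to 2.06 (median 1.51), or -0.38 on the log2 scale (95% interval -0.60 to -0.16). The groups overlapped. Zfp973, Ipp, Nsun3, Fundc1, Snx13, Rad21, Itfg1, Xrcc4 and Arid1b made up the rest. Rad21, a cohesin subunit, was at 26.4 ± 2.52 against 30.0 ± 2.65, Xrcc4, a factor of DNA end joining, at 4.35 ± 0.319 against 4.96 ± 0.33, and Arid1b, a subunit of the BAF chromatin remodeller, at 4.56 ± 0.353 against 5.17 ± 0.381. All 20 had an adjusted p of 0.755 by limma. Some of these differences lay mainly in index run 3, the only run with 4 libraries of each group. Znrf1 differed there by 0.21, against -0.01, 0.03 and 0.02 in runs 2, 4 and 5. Nsun3 differed by -0.21 in run 3, against 0.02, 0.06 and 0.01. Others kept 1 sign in runs 2 to 5, such as Twnk (0.05, 0.16, 0.13 and 0.12) and Xrcc4 (-0.06, -0.18, -0.11 and -0.17).

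**Figure D4:**
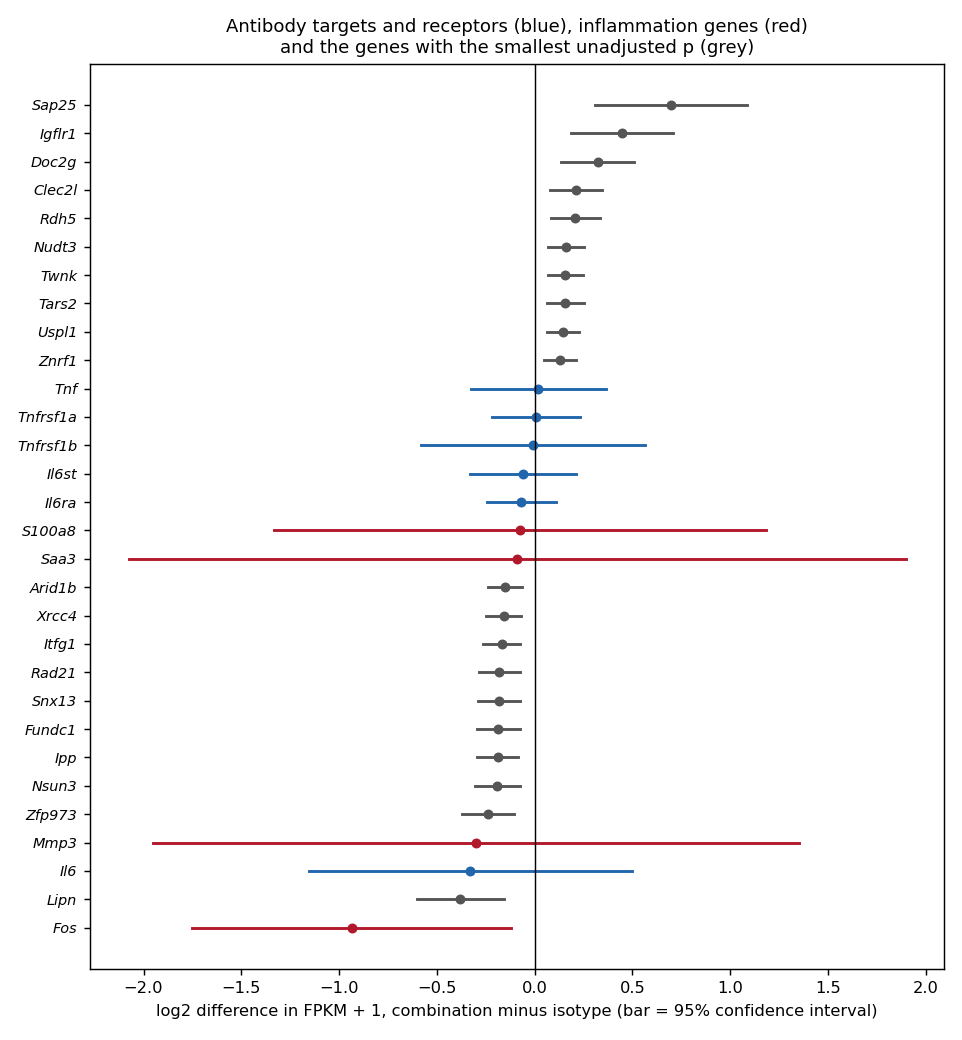
Log2 difference in FPKM + 1 (combination minus isotype) with its 95% confidence interval for the 6 target and receptor genes (blue), Fos, S100a8, Saa3 and Mmp3 (red) and the 20 genes with the smallest unadjusted p (grey). The interval of Saa3 runs from -2.08 to 1.90, while that of Znrf1 runs from 0.05 to 0.21. None of the 20 grey intervals includes 0, and none of these genes passed the adjustment.

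A difference over 1 log2 unit was found for 6 genes, and the 5 described here were chosen after their values were seen. These 5, Gm44170, Gm42846, Gm44709, Gm20463 and Gm28959, were higher in combination paws, and the annotation lists each as an antisense RNA lying wholly inside a coding gene of the opposite strand. Gm44709 (chr7:28314898-28318873, GRCm38, plus strand) lies inside Supt5, an elongation factor of RNA polymerase. It had an FPKM of 10.8 to 60.0 in combination paws (median 28.2) and 1.77 to 46.2 in isotype paws (median 12.1). The groups overlapped, with 5 of the 13 isotype paws below every combination paw and 2 combination paws above every isotype paw. The difference was 1.30 (95% interval 0.47 to 2.13, unadjusted p = 0.00279, adjusted p = 0.756 by limma).

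Gm44170 had the largest difference of the 5, 1.88 (95% interval 0.81 to 2.94, unadjusted p = 0.000839, adjusted p = 0.755 by limma), and lies inside Sec61a1, a subunit of the protein channel of the endoplasmic reticulum. Its values were under 0.01 FPKM in 0 of 13 combination, 7 of 13 isotype, 2 of 13 anti-TNF, 2 of 13 anti-IL-6 and 0 of 4 no CIA libraries. The host genes Sec61a1, Mxd4, Supt5, Rnf5 and Abhd14b differed by -0.09 to -0.02. Of the wider class 135 of 221 tested antisense genes were higher in combination paws, with 18 of them (8.14%) and 3 of the lower ones (1.36%) at an unadjusted p under 0.05, against 2.59% and 3.28% of all genes tested. Of 12541 protein-coding genes 5660 were higher, and 270 higher and 428 lower ones passed the same unadjusted threshold. Long intergenic RNAs (147 of 227 higher) and processed pseudogenes (149 of 250 higher) were on the same side as antisense genes, and unprocessed pseudogenes (9 of 33 higher) on the other.

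The summed FPKM of antisense genes was 737 to 1276 in combination paws (median 973) and 628 to 1036 in isotype paws (median 835), and 894 to 999 in no CIA paws, which were all in run 1. These sums, like the class counts above, include the genes with a difference over 1 log2 unit and were not computed without them. The combination and isotype ranges overlapped, and it was the isotype group that lay below the no CIA range by its median. The 2 isotype libraries of run 1 had the lowest sums of their group, 628 and 704, and that run held no combination library. In the third index run, which held 4 libraries of each group, the combination sums of 879 to 1054 and the isotype sums of 776 to 904 also overlapped. Whether strand was used in counting is not given in the sources used here, and without it reads of an antisense gene and its host cannot be told apart.

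**Figure D5:**
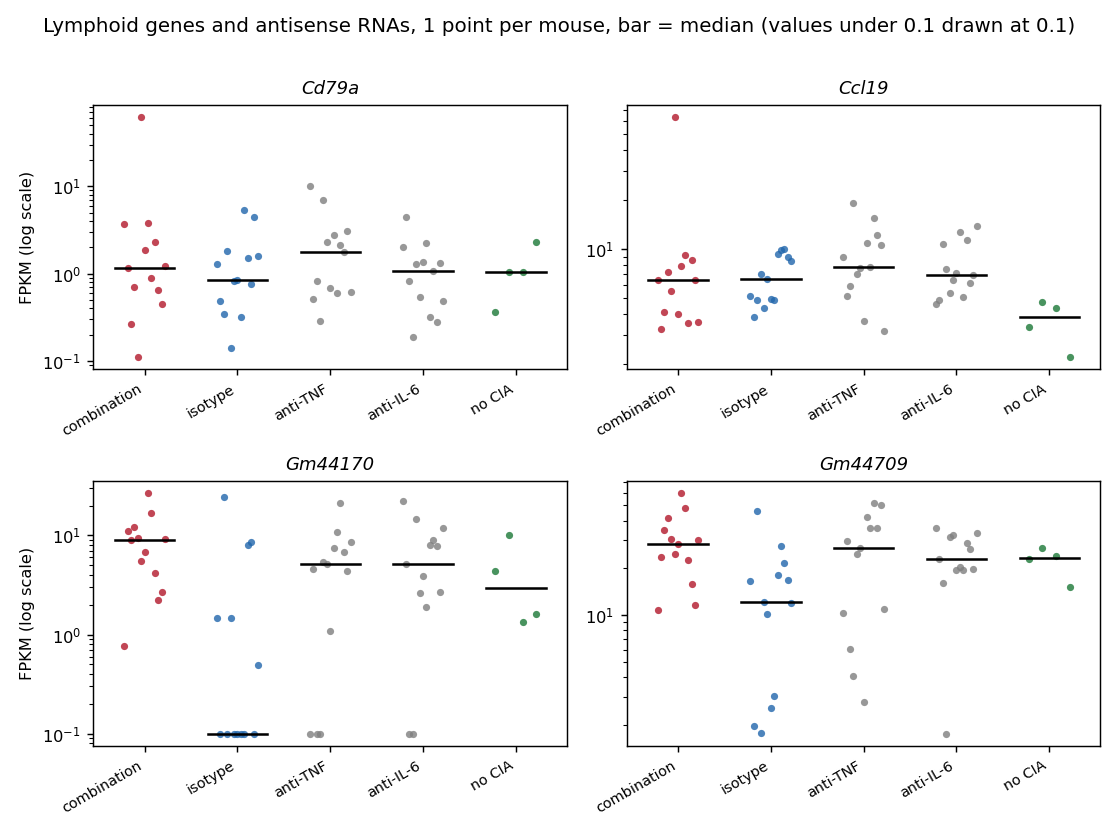
FPKM on a log axis of Cd79a, Ccl19 and the antisense RNAs Gm44170 and Gm44709 in each mouse, by group, with a bar at each group's median and values under 0.1 drawn at 0.1. One combination mouse (replicate 6) lies far above all others for Cd79a and Ccl19, and more isotype than combination mice lie at the bottom for Gm44170.

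A last test asked whether mice of the combination group varied more or less among themselves than isotype mice, using the absolute deviation of each log2 value from its group median. No gene was called (0%) among 14399. At an unadjusted p under 0.05 there were 102 genes wider (0.708%) and 68 narrower (0.472%) in combination paws, and 7736 genes were wider and 6663 narrower in all. Cdc42ep3, an effector of the small GTPase CDC42, had the smallest p of the wider genes, with a mean deviation of 0.192 against 0.0586 and an FPKM of 10.3 to 17.4 against 11.0 to 14.1. Its mean FPKM was 13.1 in combination and 13.2 in isotype paws. Tcim, Siah2, Eef1akmt1 and Enpp5 followed. Nploc4, a cofactor of the segregase VCP, had the smallest p of the narrower genes (0.0314 against 0.107), and 3 of the next 4 were hair keratin-associated genes, Krtap4-13, Krtap9-1 and Krtap4-9, which lie in 1 cluster on chromosome 11 and share sequence, which makes their separate values uncertain. Krtap9-1 ran from 10.5 to 55.8 in combination and from 9.39 to 107 in isotype paws. The fifth was Glb1l2. The absence of a call does not show that the groups varied equally.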

How the data were processed

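Front paw RNA was sequenced from 56 mice, with a TruSeq Stranded mRNA kit and paired-end NovaSeq reads per the labels' protocols. The deposited values are FPKM, 1 column per library, a unit read from the values. The submitters' processing notes name DESeq2. Aligner, annotation, build and strand use: not given in the sources used here. Values far under 0.01 FPKM occur, and how reads were assigned to genes is not stated. The deposited table holds 53431 features, and 51027 identifiers matched GENCODE M21 (GRCm38) with their version. Depth was estimated from the FPKM steps of low single-exon genes of at least 400 bases (76.9% to 80.2% whole at a tolerance of 0.05 of a step), so whole counts were not rebuilt.

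Here limma 3.58.1 in R 4.3.3 (trended, robust prior) was fitted to log2(FPKM + 1) of all 56 libraries with a mean per group (51 residual degrees of freedom). Genes were tested where mean FPKM reached 1 in combination or isotype. P-values are two-sided. The spread test used the 26 libraries alone. Differences of low genes are understated by the pseudocount of 1. Both fits were also run on simulated data, with each gene drawn independently from a normal distribution. Those data held no index runs and no genes that vary together across mice, so they do not bear on either. Tables and figures were made with Python 3.11.15, numpy 2.4.6, pandas 2.3.3 and matplotlib 3.10.9. Alternatives were pseudocounts of 0.1 and 10, no filter, a filter over all groups, a mean FPKM of at least 5, the compared groups alone, median-of-ratios scaling, an index run covariate, muscle and epidermis score covariates, and leaving out each library. List medians under these settings were added after seeing the data.

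The comparison and the 36 gene lists (621 genes, 616 in the table, 564 tested) were chosen with earlier results of these data known. Named genes are the antibody targets and receptors, the 10 higher and 10 lower genes with the smallest p and a proper symbol, each list's most abundant gene and its 2 smallest p, 5 genes each way in the spread test, and Dbp, Tef, Nr1d1 and Per3. Other genes were named after their values were seen, and a few items are not reported here.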

Additional observations from a re-analysis of the deposited data

Results flagged for a closer look

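In the no CIA group of 4 mice, the values of 7 genes named above were checked for a library far from the other 3, by the gap to its nearest neighbour over the whole range, judged by the Dixon criterion at 95%. Chance alone marks about 1 in 20 groups. Il6 was set apart by 1 library at 0.141 FPKM, the highest of the group. Fos was set apart by 1 library at 15.7 FPKM, which lies above the combination median of 11.2 and below the isotype median of 27.1.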

How the results depend on the processing

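The count of genes called between combination and isotype was 0 in each of the 9 alternative settings and in each of the 26 fits that left out 1 library (0 to 0). Genes at an unadjusted p under 0.05 numbered 351 with the index run as a covariate, 1113 after median-of-ratios scaling, 1880 with both tissue scores (muscle, epidermis) as covariates, and 619 (without combination replicate 8) to 1164 (without combination replicate 12) with 1 library left out. The smallest adjusted p was 0.176 with the tissue scores and 0.219 in the compared groups alone. Scaling by median-of-ratios moved the median difference of all genes to 0.0029. The count for spread was also 0 when 1 library was left out (0 to 0), but 1 with deviations taken from the group mean instead of the median, where Gm37371 was called wider in combination paws (adjusted p = 8.40e-07 by limma). The cause was not tested.

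Of 139 named genes, the sign of the difference turned for 8 with the index run, 5 with the tissue scores, 1 each with a pseudocount of 0.1 and median-of-ratios scaling, and 25 on leaving out 1 library, in 120 of 3614 values. No member of the 36 lists was called in any setting, and the median changed sign in 21 lists on leaving out a library and in 15 under another setting. No paired analysis was possible because the labels number replicates of no group, so that no mouse has a partner in the other group. Depth is an estimate, so no counting interval is given.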
